A study of Mus musculus with 39 samples.

Results

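The odorant receptor (Olfr) genes of mouse chromosome 2 were examined in 2 domain lists from mouse embryonic stem (ES) cells, one of nucleosome wrapping and one of replication timing (RT). The members were the protein-coding genes on chr2 whose symbol is Olfr followed by a digit in the GENCODE annotation of mm10. There were 294 such genes, of 1843 protein-coding genes on chr2 and 21951 on the 21 chromosomes, and another 841 protein-coding Olfr genes lay elsewhere. A further 76 Olfr entries of chr2 with another annotation were left out, namely 56 unprocessed, 6 transcribed unprocessed and 14 polymorphic pseudogenes. A few members carry "ps" in their symbol although the annotation counts them as protein-coding.

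Both lists came from R1 cells, a wild-type mouse ES line grown with serum and leukemia inhibitory factor, whose labelled source is the inner cell mass. No other genotype or treatment was part of either list. For wrapping, crosslinked chromatin was digested with MNase, a nuclease that trims DNA not protected by a nucleosome, and nucleosomes were recovered with an antibody against histone H3 (H3-wrapping-seq, 4 libraries from 2 independent experiments). The numbers of longer (140–250 bp) and shorter (50–140 bp) fragments in each 100 kb bin gave a wrapping index, a z-score over all bins with no unit. A positive index marks tight nucleosome wrapping domains (TiNRDs) and a negative one loose domains (LoNRDs). For RT, nascent DNA was labelled with BrdU for 2 h, cells were sorted into 4 fractions of S phase, and early and late fractions were compared as a log2 ratio in 50 kb windows (8 libraries). A positive log2 value marks early and a negative one late RT domains. Each list gave 1 value per domain with no replicate and no read number, so neither the depth nor the replicate spread of a domain is known and no test was made. Members within a domain share its value and are not replicates of each other. No expression was measured in these files, so the ES cell label could not be checked against marker genes.

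Odorant receptors are G protein-coupled receptors that detect odorants at the cilia of olfactory sensory neurons. They form the largest gene family of the mouse, arose by repeated tandem duplication, and sit in clusters of intron-poor genes on many chromosomes. Each mature sensory neuron expresses a single receptor allele, while the other receptor genes are kept in heterochromatin, and the genes are normally silent outside the olfactory epithelium.

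The members fell into 3 clusters, each separated from the next by at least 500 kb. Cluster 1 held 28 genes from Olfr338 to Olfr368 (chr2:36373519-37332772, 959 kb). Cluster 2, the largest, held 227 genes from Olfr987 to Olfr1274-ps (chr2:85330779-90403897, 5073 kb). Cluster 3 held 39 genes from Olfr1275 to Olfr1318 (chr2:111230360-112159157, 928 kb). The clusters lay 48 and 20.8 Mb apart, and no member lay alone. Cluster 1 was the sparsest with 29.2 members per Mb, beside 44.7 in cluster 2 and 42 in cluster 3. The median gap between neighbouring members was 21.4, 12.8 and 13.7 kb. Cluster 1 had 20 genes on the plus and 8 on the minus strand, cluster 2 had 79 and 148, and cluster 3 had 17 and 22.

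Most members were loosely wrapped and late replicating. By their midpoints, 288 of the 294 genes (98%) lay in LoNRDs, while 21.9% of all protein-coding genes did. In late RT domains lay 248 members (84.4%), while 22.5% of all protein-coding genes did. Both calls together held for 243 members (82.7%), with a background of 14.2% over all protein-coding genes. Of the other members, 45 lay in a LoNRD and an early RT domain (a combination found for 6.13% of all protein-coding genes), 5 in a TiNRD and a late RT domain, and 1 in a TiNRD and an early RT domain. Of all 21951 protein-coding genes, 1729 lay in a TiNRD and a late RT domain and 14687 in a TiNRD and an early one. No member lay in a gap of either list. Of all protein-coding genes, 276 lay in a gap of the NRD list and 832 in a gap of the RT list. Among the 1549 genes of chr2 that are not Olfr genes, 16.4% lay in LoNRDs and 12.1% in late RT domains. The members thus made up 53.1% of the 542 genes of chr2 in LoNRDs and 57% of the 435 in late RT domains.

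**Figure D1:**
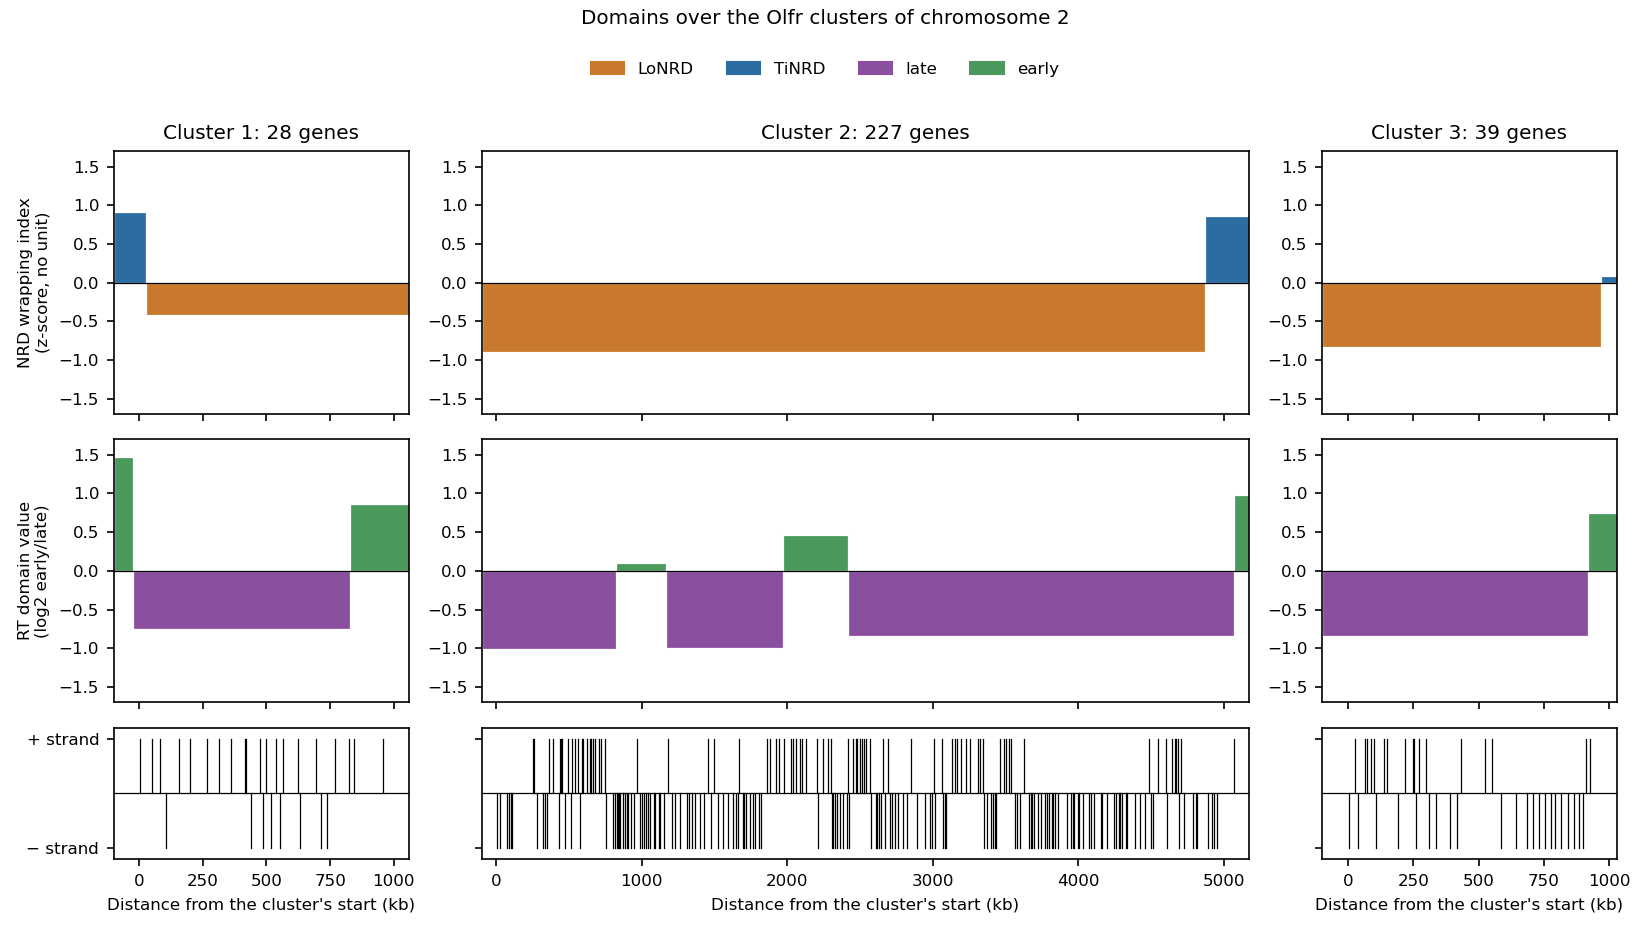
Wrapping index of each NRD (top), log2 value of each RT domain (middle) and the position and strand of each member (bottom, 1 line per gene) against the distance from the first member of the 3 clusters in kb. The LoNRDs reach along nearly the whole length of each cluster, while 2 early RT domains with values of 0.10 and 0.46 lie inside the LoNRD of cluster 2.

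Cluster 1 lay mainly in 1 LoNRD with a shallow index. Olfr338, its first gene, had its midpoint in the TiNRD to the left (chr2:34400001-36400000, index 0.912), 22.0 kb from the border and thus less than a bin of 100 kb away. The other 27 genes lay in the LoNRD chr2:36400001-37700000, whose index was −0.414, rank 351 of 611 LoNRDs from the most negative. Olfr339, the next gene, lay 22.5 kb inside it. The late RT domain chr2:36350001-37200000 had a log2 value of −0.76 and held 26 protein-coding genes, all of them members. It included Olfr338 and the middle gene of the cluster, Olfr352, which lay 470.6 kb from the NRD border and 329.4 kb from the RT border. The 2 rightmost genes, Olfr366 and Olfr368, lay in the early RT domain chr2:37200001-39350000 (log2 value 0.86) while still in the LoNRD. The RT border was thus inside the cluster and the wrapping border outside it, 367.2 kb past its end.

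Cluster 2 lay almost entirely in 1 LoNRD, chr2:85200001-90200000, with an index of −0.902 (rank 95 of 611). This domain held 228 protein-coding genes, 222 of them members, and was the LoNRD with the most protein-coding genes in the list, where the median LoNRD held 3. Replication timing alternated within it. From left to right, 38 members (Olfr987 to Olfr1040) lay in the late domain chr2:85150001-86150000 with a log2 value of −1.01. The next 22 members (Olfr1042 to Olfr228) lay in the early domain chr2:86150001-86500000 with a value of 0.10. Then 32 members (Olfr1076 to Olfr1116) lay in the late domain chr2:86500001-87300000 with a value of −1.004, and 20 members (Olfr1118 to Olfr1140) in the early domain chr2:87300001-87750000 with a value of 0.46. The remaining 110 members of the LoNRD lay in the late domain chr2:87750001-90400000, whose value was −0.85. With 117 protein-coding genes, 114 of them members, this last domain held the most protein-coding genes of the 979 late domains.

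The 2 early domains inside cluster 2 were short and had values closer to 0 than most early domains. The first was 350 kb long and all of its 22 protein-coding genes were members, at 62.9 genes per Mb. Its log2 value ranked 828 of 832 early domains from the highest, where the median early domain had 0.70. The second was 450 kb long, with 20 members and 2 other protein-coding genes, and its value ranked 592. Members well inside the early domains were Olfr153, Olfr1128 and Olfr1129 in the second and Olfr1053 and Olfr1054 in the first. Olfr153 lay 217.6 kb from the nearest RT border and 2332.4 kb from the nearest NRD border. Olfr1128 lay 204.9 kb and Olfr1054 166.2 kb from an RT border, each more than 3 windows of 50 kb. The members deepest inside a LoNRD were also early. Olfr1136, Olfr1137 and Olfr1135 lay 2493, 2489 and 2472 kb from the nearest NRD border but 56.6, 39.0 and 78.3 kb from the nearest RT border. The middle gene of the cluster, Olfr152, lay 2418 kb inside the LoNRD and 32.0 kb inside the last late domain.

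The last 5 members of cluster 2 lay in the TiNRD chr2:90200001-94600000 (index 0.866). Olfr1506, Olfr142, Olfr1271 and Olfr1272 lay 22.3, 53.9, 65.8 and 86.6 kb past the wrapping border and in the late RT domain. Olfr1274-ps, the last gene, lay 201.3 kb past the wrapping border and 1.3 kb past the start of the early domain chr2:90400001-94450000 (log2 value 0.98). These borders lie in a stretch with little unique sequence. A 50-mer was called unique when it occurs once in the 21 chromosomes on either strand. The 50 kb windows on the left and right of the wrapping border at 90200000 had 18.4% and 2.4% unique 50-mers, and the next windows had 75.4%, 14.4% and 6.2% up to the RT border at 90400000. Of 139 windows of 50 kb in the clusters, 5 had under 25% unique 50-mers and 4 of these lay in this stretch. Of the 3428 windows of chr2 outside the clusters, 1.52% did. The authors kept reads of a minimum mapping quality, and the number of reads in these windows was not analysed here, so the part of mapping in these 2 borders was not tested. At the other RT borders in cluster 2 the windows on both sides had 71.5% to 94.2% unique 50-mers.

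Cluster 3 lay wholly in the LoNRD chr2:107000001-112200000 (index −0.833, rank 124 of 611). Of its 39 members, 38 lay in the late domain chr2:110200001-112150000 with a log2 value of −0.84. They ranged from Olfr1275, which lay 967.2 kb inside the LoNRD and 917.2 kb inside the late domain, through the middle gene Olfr1297 at 579.1 and 529.1 kb. Olfr1318, the last gene, lay in the early domain chr2:112150001-112800000 (log2 value 0.75), 6.7 kb past its start and 43.3 kb before the end of the LoNRD. Its nearest neighbour Olfr1317, 14.5 kb away between midpoints, was late. Both distances of Olfr1318 to a border are below the window sizes used to make the lists.

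Across the 3 clusters, the ends lay 26.5 to 970 kb from the nearest NRD border (median 167 kb, n = 6 ends) and 3.9 to 920 kb from the nearest RT border (median 78.2 kb). At 5 of the 6 ends an RT border lay within 200 kb, and at 3 an NRD border did. The 20 Olfr clusters of 10 or more genes on other chromosomes had medians of 384 kb to an NRD border and 170 kb to an RT border over 40 ends. Of these, 17 ends had an NRD border and 25 an RT border within 200 kb. The members themselves lay a median of 948 kb from an NRD border (22 to 2493 kb) and 299 kb from an RT border (1.29 to 1322 kb). Among protein-coding genes other than Olfr genes the medians were 903 and 525 kb. Under 100 kb from an NRD border lay 15 members (5.1%, beside 8.26% of the genes other than Olfr), and under 100 kb from an RT border lay 53 (18%, beside 9.8%).

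Few other genes shared the clusters. Clusters 1 and 3 held no protein-coding gene other than members, and cluster 2 held 7. Pramel7 and Pramel6, related leucine-rich repeat genes of the Prame family known to be active in early embryonic and ES cells, lay in the second early domain (chr2:87489087-87497093 and chr2:87506565-87510872), next to members in both directions. Of the other 5, 4833423E24Rik, Gm13723, Gm13757 and Gm13762 lay in the LoNRD and in late domains. Gm13769 lay among the low-uniqueness windows at the right end, in the TiNRD and the late domain. On the flanks the calls changed within a short distance in several cases. Ptgs1, which encodes cyclooxygenase 1, lay 121.2 kb left of cluster 1 in a TiNRD and an early domain with a log2 value of 1.47. Pdcl, a phosducin-like gene, lay 17.3 kb right of it in the same LoNRD as the cluster and an early domain. Lrrc55, 133.6 kb left of cluster 2, lay in a TiNRD and a late domain. The tyrosine phosphatase gene Ptprj, 25.9 kb right of cluster 2, lay in the TiNRD and the early domain. 4930430A15Rik lay 0.8 kb left of cluster 3 with the same calls as the cluster, and Lpcat4, a lysophospholipid acyltransferase gene, lay 80.3 kb right of it in a TiNRD with an index of 0.0834 and an early domain.

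**Figure D2:**
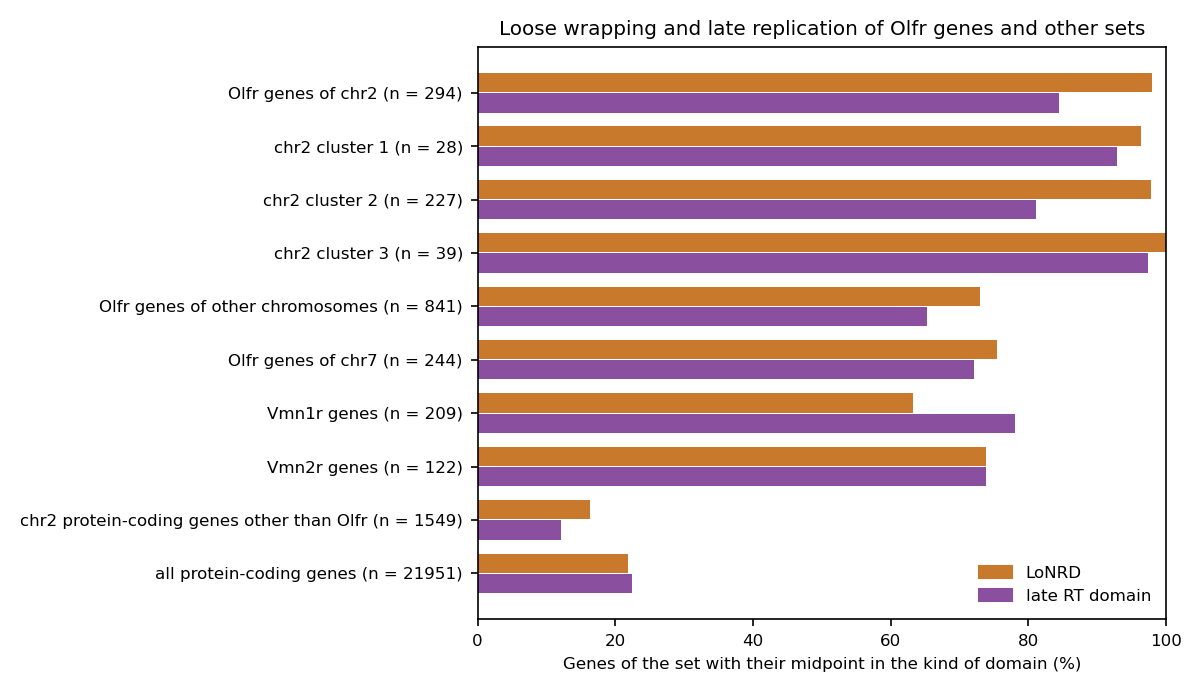
Percentage of genes with their midpoint in a LoNRD (orange) and in a late RT domain (purple) for the Olfr genes of chr2, each of their clusters, other chemosensory receptor sets, other genes of chr2 and all protein-coding genes, with the number of genes in each set. The chr2 Olfr genes reach 98% in LoNRDs and 84.4% in late domains, beside 73% and 65.3% for Olfr genes of other chromosomes.

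Olfr genes of other chromosomes had lower shares as a pool, although some chromosomes came close to chr2. Of these 841 genes 614 (73%) lay in LoNRDs and 549 (65.3%) in late RT domains, and the median index of their domains was −0.457 beside −0.902 for the members. The median RT value was −0.70 for 773 of them with a value and −0.85 for the members, where the genes of cluster 2 set both medians of the members. On chr7, with 244 Olfr genes, 75.4% lay in LoNRDs and 72.1% in late domains. On chr9 97.7% of 132 Olfr genes lay in LoNRDs, while on chr4 20.8% of 24 and on chr11 25.6% of 82 did. On chr16 94.4% of 36 Olfr genes lay in LoNRDs and 91.7% in late domains. The shares were 93.9% and 81.8% of 66 on chr19, and 84.3% and 80% of 70 on chr10. Of the 20 larger clusters elsewhere, 12 had at least 80% of their genes in LoNRDs and 4 had at least 50% in TiNRDs. At least 80% of the genes were in late domains in 10 of these clusters. The 3 clusters of chr2 had 96.4%, 97.8% and 100% of their genes in LoNRDs and 92.9%, 81.1% and 97.4% in late domains. The number of clusters is small, and the difference between chromosomes was not tested.

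Other chemosensory families were given for comparison. The vomeronasal receptors detect pheromones, and 63.2% of 209 Vmn1r and 73.8% of 122 Vmn2r genes lay in LoNRDs. In late domains lay 78% of the Vmn1r and 73.8% of the Vmn2r genes. Bitter taste receptors (Tas2r) reached 80% of 35 genes, and all 7 formyl peptide receptor (Fpr) genes lay in LoNRDs. In late domains lay 91.4% of the Tas2r and 71.4% of the Fpr genes, beside 84.4% of the members. Trace amine-associated receptors (Taar), which are also olfactory receptors, had none of 15 genes in LoNRDs or late domains, and neither had any of the 3 Tas1r genes. The 19 Ms4a genes were taken by symbol, without regard to whether each acts in chemosensation. Of them 14 lay in LoNRDs, with 12 in early domains, none in late domains and 7 in gaps of the RT list. Gene sets of chr2 itself, picked by symbol, had mixed calls. None of 9 Hoxd, 11 Defb and 14 Wfdc genes lay in LoNRDs. The 12 Cst genes have symbols of Cst followed by a digit or a letter, and were not checked to be cystatin genes. Of them 9 lay in LoNRDs, with 1 in a late domain, 4 in early domains and 7 in gaps of the RT list. The 5 Scn (sodium channel) genes all lay in LoNRDs, as nearly all members did, and 3 of them in late domains.

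The genes that act with the receptors had calls at about the shares of all protein-coding genes. Of 30 symbols listed for odorant signalling and receptor choice 29 were found, and the other, Adrbk2, is a former symbol of the listed Grk3. Of the 29 genes 25 lay in TiNRDs (86.2%, beside 76.8% of all protein-coding genes) and 4 in LoNRDs (13.8%, beside 21.9%). By RT, 21 were early (72.4%, beside 73.7%), 7 late (24.1%, beside 22.5%) and 1 (Ebf2) lay in a gap of the list. The transduction genes in TiNRDs and early domains were the G protein subunit genes Gnal, Gng13 and Gnb1, the exchange factor gene Ric8b, the adenylyl cyclase gene Adcy3, the channel subunit gene Cngb1, the exchanger gene Slc24a4, the phosphodiesterase gene Pde4a, Arrb2 and Grk3. The receptor transport genes Rtp1, Rtp2 and Reep1 and the olfactory marker protein gene Omp had the same calls. So had the regulators Lhx2, Ldb1, Ebf1, Ebf3, Ebf4, Kdm1a and Atf5. Cnga2, Pde1c, Gap43 and Ncam2 lay in LoNRDs and late domains, with indices of −0.504, −0.714, −1.10 and −1.13. Cnga4, Ano2 and Emx2 were late but in TiNRDs. Of these genes 2 lay on chr2. Lhx2, a homeodomain factor needed for receptor expression, lay right of cluster 1 at chr2:38339281-38369733 in a TiNRD with an index of 0.737, and Ebf4 lay in a TiNRD with an index of 0.747.

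The clusters were A/T-rich. Over 70 windows of 100 kb the median A/T content was 63.0% (58.0% to 64.7%), with 61.0%, 63.1% and 62.1% in clusters 1, 2 and 3. LoNRD windows of chr2 outside the clusters had a median of 61.1% (n = 786, SD 1.7 over windows) and TiNRD windows 55.4% (n = 903, SD 3.2). Cluster 1, whose LoNRD had the index closest to 0 of the 3, also had the lowest A/T content and the narrowest range (60.1% to 61.4%). Annotated repeats covered a median of 49.5% of the windows in the clusters, beside 35.2% in other LoNRD and 26.1% in TiNRD windows of chr2. Outside the repeats the A/T content of the clusters was 63.4%.

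**Figure D3:**
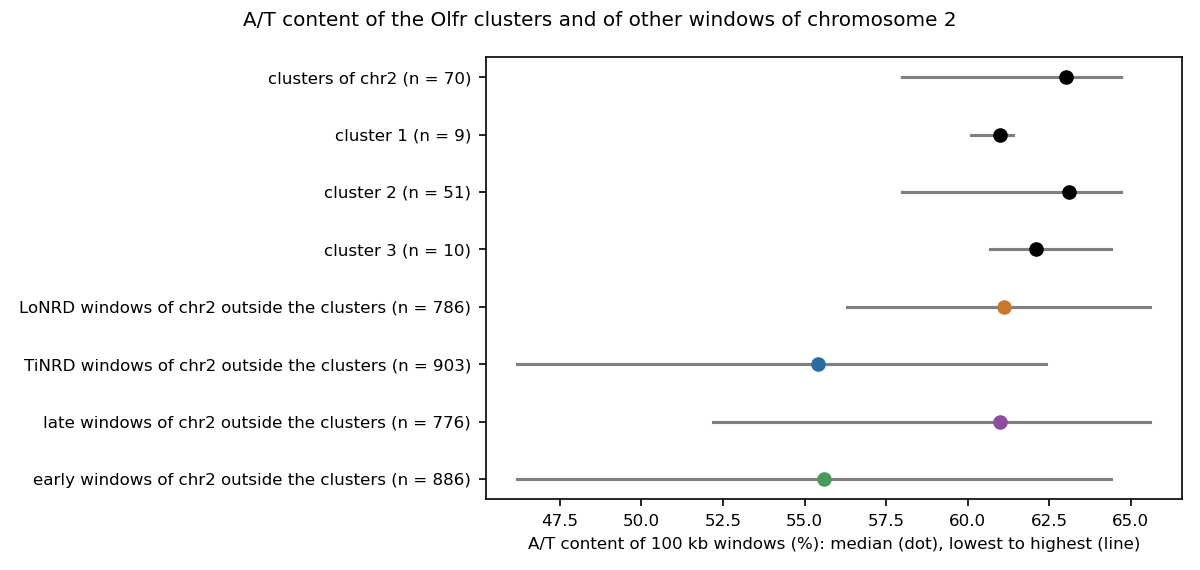
A/T content of 100 kb windows in %, with the median as a dot and the lowest to highest window as a line, for the Olfr clusters and for windows of chr2 outside them by kind of domain. The median of the clusters, 63.0%, lies above the medians of other LoNRD (61.1%) and TiNRD (55.4%) windows of the chromosome.

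Within the LoNRD of cluster 2, the A/T content of the early domains lay on both sides of that of the late ones. The first early domain had 64% and the second 62.2%, beside 62.0%, 63.6% and 62.7% in the late domains from left to right. On a grid of 50 kb the 16 early windows had a median A/T content of 63.3% (60.3% to 65.2%) and the 81 late windows also 63.3% (57.7% to 66.2%). Repeats covered 44.8% of early and 45.7% of late windows, and unique 50-mers made up 87.2% and 85.4%. Early windows held a median of 3 members (1 to 5) and late ones 2 (0 to 4). Elsewhere in the genome, LoNRD windows in early domains had a lower median A/T content (59.9%, n = 3176) than those in late domains (61.6%, n = 21085). The 19 windows of the clusters with that combination of calls had 63.1%. The 5 windows of the clusters in a TiNRD and a late domain had 59.1%. Neighbouring windows are not independent, so these medians are given as a description.

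**Figure D4:**
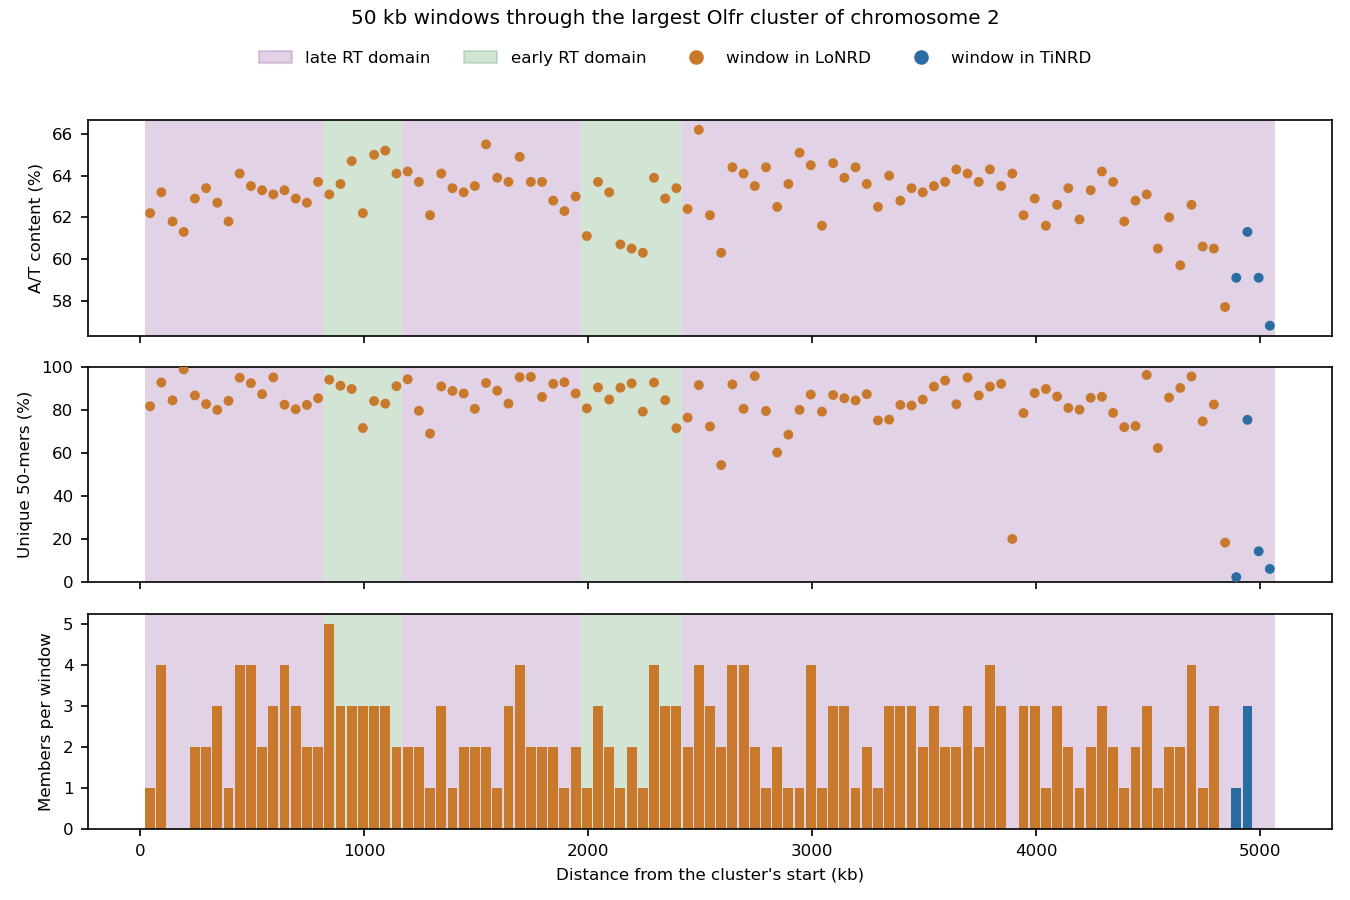
A/T content (top, %), unique 50-mers (middle, %) and number of members (bottom) in 50 kb windows against the distance from the start of cluster 2 in kb, on a background of late (purple) and early (green) RT domains, with points and bars coloured by NRD. Windows range from 60.3% to 65.2% A/T in the early and from 57.7% to 66.2% in the late stretches of the LoNRD, while unique 50-mers drop to between 2.4% and 18.4% in 4 of the last 5 windows.

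Of the 4 RT borders between late and early members inside the LoNRD of cluster 2, 3 ran between a gene and its nearest copy. Over all members, the nearest copy was an adjacent member for 114 of 294. The borders were examined after their calls were seen, and no test was made. Coding sequences were compared by edit distance, and for each member the most similar other member was taken as its nearest copy. Of the 46 early members 34 had an early nearest copy and 12 a late one, and over all members 31 had a nearest copy with the other RT call. At the left border of the first early domain, Olfr1040 (late) and Olfr1042 (early) lay 13.0 kb apart and Olfr1040 was the nearest copy of Olfr1042 with 87.0% identity. At its right border the nearest copy of Olfr228 (early) was its late neighbour Olfr1076, with 93.1% identity at 24.3 kb. At the left border of the second early domain Olfr1116 (late) and Olfr1118 (early) were each other's nearest copy, with 96.6% identity at 37.7 kb. At its right border the flanking genes Olfr1140 and Olfr1141 both had early nearest copies farther away, Olfr1135 with 83.3% and Olfr1138 with 76.1% identity. At the RT border of cluster 3 the nearest copy of Olfr1318 was Olfr1317, with 96.2% identity. The first early domain also had a run of 1 strand, since 21 of its 22 members were on the minus strand, while the second had 12 on the plus and 8 on the minus strand. In these domains 17 of 22 and 17 of 20 members had their nearest copy within the same domain. In the late domains, from left to right, 33 of 38, 23 of 32 and 109 of 114 did.

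Nearest copies lay almost always within a cluster, although most pairs of members in a cluster were not near copies. For 293 of the 294 the nearest copy was in the same cluster, and for 114 it was the next member along the chromosome. The median identity to the nearest copy was 88.1% (59.6% to 99.2%). It was at least 90% for 128 members, at least 95% for 67 and under 70% for 22. Over all pairs the median identity was 62.6%, 58.3% and 64% within clusters 1, 2 and 3, and 56.5% to 57.5% between clusters. The exception was Olfr368, the last and early gene of cluster 1, whose nearest copy was Olfr1019 of cluster 2 with 62.2% identity. It also had the lowest coding A/T content of the members, 46.6%, where the median was 58.3%. Coding lengths were 903 to 1038 bases (median 936), and in 285 members the whole coding sequence lay in 1 exon.

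Near copies limit how short fragments can be assigned. The median member had 96% unique 50-mers, and 223 had at least 90%. Olfr1311 and Olfr1275 had 100%. The closest pair, Olfr1315-ps1 and Olfr1316 in cluster 3, differed at 8 of 942 coding bases, and 38.6% of the 50-mers of Olfr1315-ps1 were unique. Olfr1506, the first member past the wrapping border of cluster 2, had 0.0% unique 50-mers and 100-mers. Its nearest copy among the members was Olfr1274-ps at the other end of the low-uniqueness stretch, 179 kb away. They differed at 15 of 927 coding bases. Sequence outside the members, including Olfr pseudogenes, was not compared, so closer copies of Olfr1506 elsewhere were not searched for. The 90 bases with the most differences are shown for both pairs, 5′ to 3′ on the minus strand for the first 3 and the plus strand for Olfr1274-ps, with differing bases in capitals. They are coding bases 754 to 843 of the first pair (chr2:112110414-112110503 and chr2:112129973-112130062) and 304 to 393 of the second (chr2:90222104-90222193 and chr2:90400966-90401055), read from GRCm38.
Olfr1315-ps1: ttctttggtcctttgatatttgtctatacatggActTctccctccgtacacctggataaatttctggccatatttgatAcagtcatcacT
Olfr1316: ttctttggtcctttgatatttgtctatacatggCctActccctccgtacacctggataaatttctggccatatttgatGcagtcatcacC
Olfr1506: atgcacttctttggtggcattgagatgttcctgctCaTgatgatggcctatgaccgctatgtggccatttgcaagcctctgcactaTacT
Olfr1274-ps: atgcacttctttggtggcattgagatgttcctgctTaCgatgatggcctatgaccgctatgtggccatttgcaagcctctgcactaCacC
In each of these stretches the copies differ at 4 of 90 bases.

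**Figure D5:**
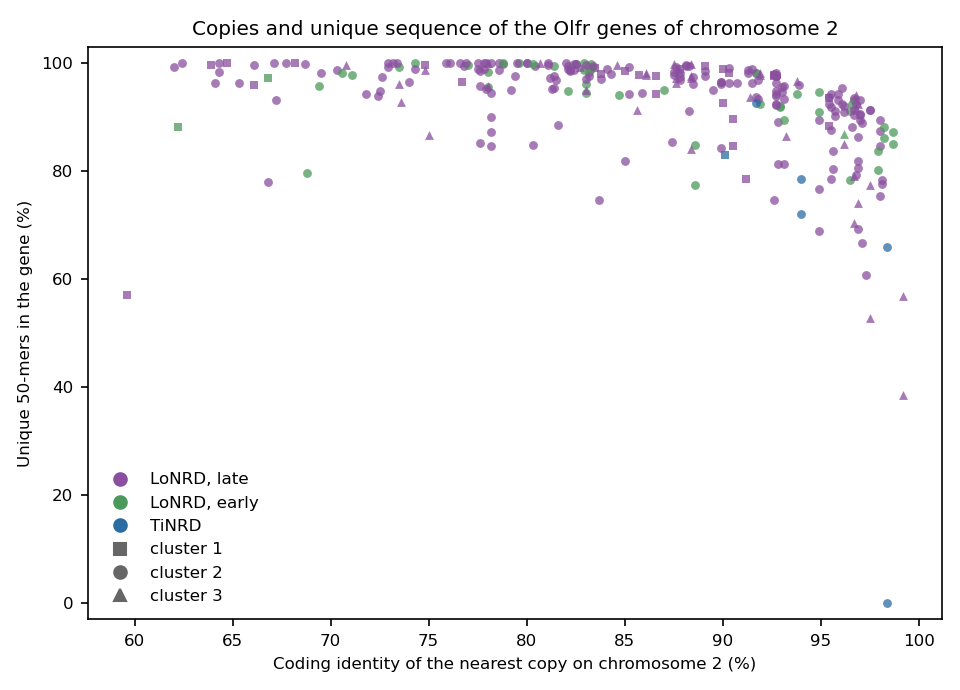
Unique 50-mers of each member in % against the coding identity of its nearest copy among the members in %. Each gene is 1 point, coloured by its calls and shaped by cluster. Members whose nearest copy is under 90% identical mostly have over 90% unique 50-mers, and Olfr1506 is at 0.0%.

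Promoters of the members were A/T-rich as well. The 300 bases from 250 before to 50 after the annotated GENCODE start had a median A/T content of 65.7% (47.3% to 76.7%, n = 294), beside 45.0% for 21931 protein-coding genes and 61.3% for 841 Olfr genes of other chromosomes. The TATA box motif TATAAA was found on either strand in 45.2% of the members' promoters and 12.7% of all. A homeodomain core, TAATTA, was found in 33.3% and 5.3%. Both motifs consist of A and T, so their shares move with the A/T content, and its part was not tested. The Olf/Ebf motif TCCCNNGGGA, the site named for the Ebf factors of olfactory neurons, was found in 5 members (1.7%), beside 0.994% of all protein-coding genes and 2.85% of the other Olfr genes. TATAAA and TAATTA can share their end bases, and the Olf/Ebf motif overlaps neither. In LoNRD and late members the median A/T content was 65.7% (n = 243), as it was in LoNRD and early members (n = 45), and TATAAA was found in 45.7% and 44.4% of them. TAATTA was found in 31.7% and 40%, and the Olf/Ebf motif in 3 (1.23%) and 2 (4.44%) of them. These differences were not tested.

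The choice of start matters here. RefSeq listed a promoter for 237 members, and its start lay within 50 bases of the GENCODE start for 31 of them, with a median distance of 2613 bases. GENCODE starts lay a median of 2785 bases before the coding sequence, and for 21 members the annotated start was the coding start itself. For Olfr338, Olfr339 and Olfr340 the 50 bases after the RefSeq start begin with the ATG of the coding sequence. How many other RefSeq starts are coding starts was not counted. Stretches of that kind flank the coding exon and need not be promoters. With RefSeq starts the median A/T content was 67.3%, TATAAA was found in 49.8% and TAATTA in 24.9% of the members, and the Olf/Ebf motif in 0 of 237. Over the RefSeq promoters of protein-coding genes the median was 43.0% and the shares were 12.9%, 4.61% and 0.981%. Other Olfr genes had 63.3% A/T and shares of 38.2%, 16.6% and 0.72%. The 5 promoters with an Olf/Ebf match at the GENCODE start are shown, since they were the only members with it. They come from all 3 clusters, and Olfr1046 and Olfr1047 are neighbours in the first early domain of cluster 2. Sequences are 5′ to 3′ on the strand of the gene from GRCm38, with matches to any of the 3 motifs in capitals. They lie at chr2:36784026-36784325 (Olfr348, plus), chr2:86219265-86219564 (Olfr1046, minus), chr2:86231352-86231651 (Olfr1047, minus), chr2:88915108-88915407 (Olfr1209, minus) and chr2:111313767-111314066 (Olfr1280, plus).
Olfr348: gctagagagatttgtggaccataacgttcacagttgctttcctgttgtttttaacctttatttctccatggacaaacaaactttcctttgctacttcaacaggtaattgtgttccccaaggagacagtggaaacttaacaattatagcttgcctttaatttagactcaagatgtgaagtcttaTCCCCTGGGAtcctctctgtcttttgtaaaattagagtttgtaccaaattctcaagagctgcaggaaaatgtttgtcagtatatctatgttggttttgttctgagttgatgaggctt
Olfr1046: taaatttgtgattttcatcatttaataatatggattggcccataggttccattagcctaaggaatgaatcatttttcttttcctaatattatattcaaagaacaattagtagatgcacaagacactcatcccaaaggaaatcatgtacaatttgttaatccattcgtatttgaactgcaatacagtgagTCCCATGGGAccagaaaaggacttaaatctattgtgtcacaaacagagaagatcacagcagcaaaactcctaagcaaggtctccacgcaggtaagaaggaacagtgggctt
Olfr1047: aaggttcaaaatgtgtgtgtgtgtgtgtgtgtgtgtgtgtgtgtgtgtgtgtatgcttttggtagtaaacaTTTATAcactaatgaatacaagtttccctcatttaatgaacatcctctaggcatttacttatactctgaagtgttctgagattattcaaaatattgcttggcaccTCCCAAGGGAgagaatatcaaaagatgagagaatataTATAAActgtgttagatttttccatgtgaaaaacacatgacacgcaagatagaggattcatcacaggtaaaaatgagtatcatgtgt
Olfr1209: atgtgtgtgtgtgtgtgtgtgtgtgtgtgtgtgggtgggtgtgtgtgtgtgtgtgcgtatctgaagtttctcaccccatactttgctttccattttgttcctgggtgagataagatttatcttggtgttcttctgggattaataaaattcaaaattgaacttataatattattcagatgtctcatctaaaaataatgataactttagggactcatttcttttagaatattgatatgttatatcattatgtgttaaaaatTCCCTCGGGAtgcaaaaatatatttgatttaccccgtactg
Olfr1280: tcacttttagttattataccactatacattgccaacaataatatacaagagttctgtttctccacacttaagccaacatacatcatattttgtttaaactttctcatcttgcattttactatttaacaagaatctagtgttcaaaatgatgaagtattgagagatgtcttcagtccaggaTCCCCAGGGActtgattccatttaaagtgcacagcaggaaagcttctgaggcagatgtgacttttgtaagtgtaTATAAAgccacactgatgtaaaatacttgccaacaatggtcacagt
Of these 5 promoters, those of Olfr1047 and Olfr1280 also held TATAAA on either strand. The members in this group were chosen after the motif search was seen, and a match of letters does not show binding.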

How the data were processed

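The members and gene lists were chosen with earlier results of these data known. H3-wrapping-seq (4 libraries) and RT profiling (8 libraries) of R1 cells gave 2 lists, and other libraries of the study were not analysed here. Per the labels and methods, the authors trimmed reads with cutadapt 4.3, aligned them to mm10 with Bowtie2 2.5.1, marked duplicates with Picard, filtered with SAMtools and used bedtools 2.30.0. The authors deposited a score for each NRD, and the value of each RT domain is a log2 ratio deposited by the authors after quantile normalization. How bin values became a domain value, and whether RT experiments were pooled, is not given in the sources used here. The index was smoothed over 10 bins. The deposited list holds 1243 NRDs (632 TiNRDs and 611 LoNRDs), not the number in the study's text, and ranks refer to this list. All domains ended within the chromosome lengths of GRCm38.

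Genes were those of GENCODE, called by midpoint. Kinds were read from the sign of the value. Clusters were split at gaps of 500 kb. No sample comparison was possible, so shares were set beside the share over all protein-coding genes. Domains, A/T content and repeats (lower case letters) were counted in windows with at least 50% assembled bases. Unique 50-mers were counted over 21 chromosomes on both strands, and identity came from edit distance over the longer coding sequence. Python 3.11.15, numpy 2.4.6, scipy 1.17.1, numba 0.67.0, edlib 1.3.9.post1 and matplotlib 3.10.9 were used, and window calls, k-mer counts and identities were tested on simulated data. Genes were named by a rule (first, middle and last of each cluster, TiNRD or early members farthest from borders, extremes of border distance and of unique 50-mers, neighbours, and the pathway list). The members at the right end of cluster 2, those at RT borders, the closest pair, Olfr366, Olfr368 and the promoters shown were named after their values were seen. Promoters at GENCODE starts were added after those at RefSeq starts were seen. Protein sequences were not used here.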

Additional observations from a re-analysis of the deposited data

How the results depend on the processing

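No paired analysis was possible because the lists carry no replicate, and for the same reason no replicate could be left out. The confidence interval used as a yardstick for the shares is the exact 95% binomial one (95.6% to 99.2% for LoNRDs, 79.7% to 88.3% for late domains, 77.8% to 86.8% for both calls). It treats genes as independent, which neighbours in a domain are not. The shares moved beyond it in these settings. With members at least 100 kb from a border, 99.6% of 279 lay in LoNRDs, 91.7% of 241 in late domains and 91.4% of 232 in both. With each cluster given the same weight, 90.5% lay in late domains and 88.7% in both. Without the largest cluster, a setting chosen after seeing the data, 95.5% of 67 members lay in late domains and 94% in both, since the 2 early domains inside cluster 2 then dropped out. Of 30 alternatives for the 3 shares the other 23 stayed within the interval, including pseudogenes, gene starts and whole gene bodies. Merging domains at most 200 kb apart could not change a call, since every domain with members was at least 350 kb long. Dropping domains under 500 kb could not change the shares. It removed no LoNRD or late domain with members and kept all 294 genes in the count. Keeping only members in windows of at least 25% unique 50-mers (added after seeing the data) left 293 genes, so it hardly tested the shares. The number of clusters was 3 in each setting tried. The median A/T content of the clusters (62.9% with 50 kb windows, 63.4% outside repeats) and of unique 100-mers (93.2%, beside 83.9% for 50-mers) moved by less than 1 SD over windows. Borders closer than a bin or window, and those in sequence with few unique 50-mers, limit the calls of single genes at cluster ends.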
